A study of Rattus norvegicus with 12 samples.

Results

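Recovery of the rat kidney over the 5 weeks after an inhibitor of nitric oxide synthesis was withdrawn was measured by comparing kidneys taken at the peak of damage (W0) with kidneys taken 5 weeks later (W5). The comparison was between 6 of the 12 arrays of the series, 3 W0 and 3 W5, one rat per array, over 18166 genes, each read by 1 probeset, and its test came from 1 fit of all 12 arrays, which share a variance per gene. The rats were male Sprague Dawley animals of 250 g at the start. The W0, W1 and W5 rats had all received L-NAME (NG-nitro-L-arginine methyl ester, a competitive inhibitor of the nitric oxide synthases) at 15 mg/kg per day with NaCl at 6 g/L in the drinking water. L-NAME was given until the ratio of urinary protein to creatinine passed 1 g/mmol. W0 rats were killed at that point, W1 rats 1 week and W5 rats 5 weeks after L-NAME was stopped, and 3 age-matched rats without L-NAME formed the CTL group. Whether CTL rats drank NaCl, whether NaCl was stopped with L-NAME, and at what hour the rats were killed are not given in the sources used here. The paper states that the weeks on L-NAME before it was removed varied, and they are not given per rat. W0 and W5 rats are different animals, so the course is one between groups and not within a rat. Time off L-NAME, age, length of exposure to L-NAME and any change in NaCl intake cannot be told apart. RNA came from a piece of whole kidney with cortex and medulla unseparated, so that fewer cells of a type and less RNA per cell cannot be told apart.

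Without nitric oxide the renal vessels constrict, pressure rises and peritubular capillaries are lost, and the tubule epithelium supplied by them suffers. An injured proximal tubule cell gives up its transporters and metabolic enzymes, makes the injury receptor Havcr1 (also called kidney injury molecule), cytoskeletal proteins and secreted signals, and may draw in macrophages and matrix-producing fibroblasts. When the insult ends, surviving cells can redifferentiate, and inflammation and matrix are cleared at their own pace.

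Levels below are log2 values, so that a difference of 1 is a doubling. A gene is said to have risen or fallen where its adjusted p in limma was under 0.05. From W0 to W5, 341 genes rose (1.88% of 18166) and 575 fell (3.17%), 916 in all (5.04%), and 238 of these changed at least 2-fold, 87 upward and 151 downward. At an unadjusted p under 0.05 there were 3220 genes. The median difference over all genes was -0.003, and the 3 levels of each group did not overlap for 4185 genes (23%), 1888 higher and 2297 lower at W5. These shares of all genes, 1.88% risen, 3.17% fallen and 23% without overlap, are what the counts of each list below stand against. The lists and their members were chosen with earlier results of these data known. A list's count beside these shares is therefore a description and not independent evidence of enrichment. Arrays of the same group correlated at 0.982 to 0.989 in W0 and 0.988 to 0.992 in W5, and W0 with W5 arrays at 0.976 to 0.984. The median SE of a difference was 0.145, and the smallest change called was 0.38. One W5 rat weighed most on the count: without W5 rat 2 there were 407 called genes, 401 of them among the 916. In a fit of the 6 W0 and W5 arrays alone 537 genes were called, 517 of them among the 916. Of the 916, 363 were called whichever 1 of the 12 arrays was left out. A gene named below without a remark is one of those 363, and for any other the rats whose omission ended its call are given with the adjusted p that resulted. Of the named genes without such a remark, Mep1a (adjusted p = 0.0514), Ube2c (0.0515), Dio1 (0.0564) and Socs3 (0.0654) were not called in the fit of 6 arrays.

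**Figure D1:**
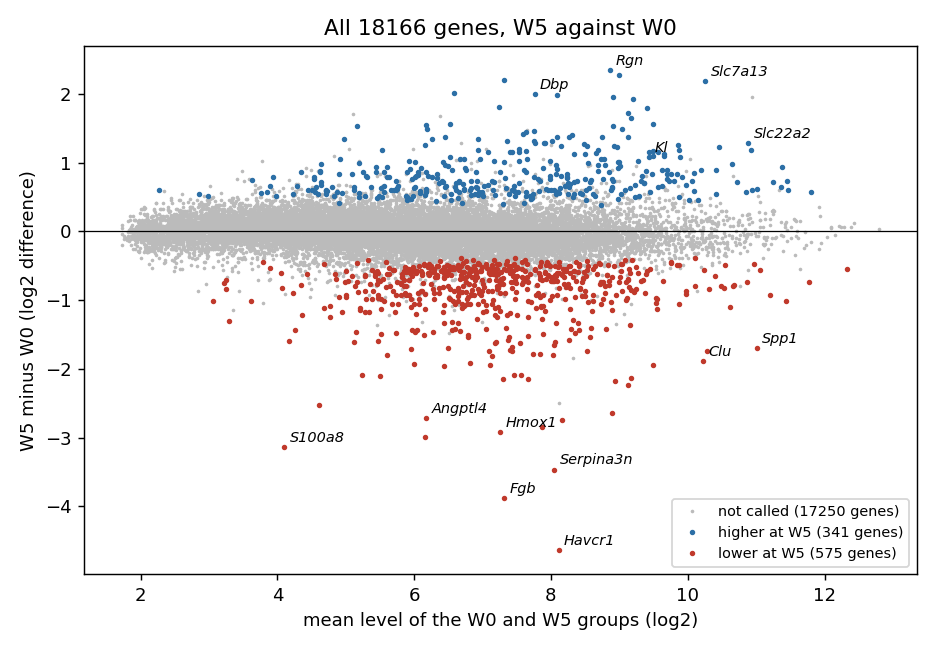
Difference between W5 and W0 (log2, vertical axis) of each of the 18166 genes against the mean of its W0 and W5 levels (log2, horizontal axis), with the 341 genes that rose and the 575 that fell in colour. Falls reached further than rises, to -4.64 for Havcr1 against 2.35 for Rgn.

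Genes of tubular injury had the lowest median of the 40 lists read. Of 32 measured injury markers 19 fell and 0 rose (0 rose at an unadjusted p under 0.05 too), the W5 levels of 23 lay wholly below W0, and the median difference was -0.91 against -0.003 over all genes. Over all genes 3.17% fell, and 23% did not overlap in either direction. Havcr1, a receptor that lets injured proximal tubule cells engulf debris, stood at 10.25, 10.79 and 10.26 in the W0 rats and at 5.67, 5.79 and 5.92 in the W5 rats. The groups were thus separated by more than 4 log2 units, and the change was 25.0-fold downward (-4.64, SE 0.232, adjusted p = 2.31e-07). Its mean was 8.8 at W1 and 5.26 in CTL, and the steps before and after W1 did not differ in the test (difference 1.38, SE 0.401, adjusted p = 0.384). Clu, a secreted chaperone, was at 10.95, 11.23 and 11.31 at W0 and at 9.41, 9.16 and 9.23 at W5 (-1.89, SE 0.202, adjusted p = 0.000165). Spp1, the matrix protein osteopontin, was at 11.77, 11.9 and 11.9 at W0 and at 10.47, 9.98 and 10.01 at W5 (-1.7, SE 0.185, adjusted p = 0.000177). Both genes were nearly as high at W1 as at W0, with W1 means of 11.06 and 11.64, and both W5 groups stayed clear of W0. Tnfrsf12a, the receptor of the cytokine TWEAK, fell from 9.09, 8.92 and 8.77 to 7.12, 6.9 and 7.36 (-1.8, adjusted p = 6.47e-06).

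Other genes of the injury list fell by less. Anxa2, a membrane-binding annexin, fell by 1.42, Cd44, the hyaluronan receptor, by 1.12, Lgals3, galectin-3, which macrophages make too, by 1.06, Vim, the intermediate filament protein of mesenchymal and dedifferentiated cells, by 1.05, and Anxa1 by 0.94. The keratin genes Krt8 (-0.88) and Krt18 (-0.85) also fell, whereas Krt19 differed by -0.37 (adjusted p = 0.338). The call of Krt8 was lost without W5 rat 1 (adjusted p = 0.054), and that of Krt18 without W0 rat 1, W0 rat 3 or W5 rat 2 (0.0529 to 0.0954). Lcn2, the iron-binding lipocalin used as a urinary injury marker, did not separate the groups: it was at 10.4, 6.67 and 10.65 at W0 and at 7.74, 7.15 and 7.33 at W5 (adjusted p = 0.407), and W0 rat 2 lay below every W5 rat. Sox9, a transcription factor of tubular repair, lay between 5.0 and 5.25 in all 6 rats (-0.05, adjusted p = 0.886).

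The 3 fibrinogen chains, which the liver makes in health and the injured tubule can make too, were among the largest falls. Fgb, the beta chain, was at 9.53, 9.18 and 9.04 at W0 and at 5.34, 5.1 and 5.66 at W5, 14.8-fold lower (-3.88, SE 0.216, adjusted p = 5.05e-07). Fga fell from 10.05, 9.05 and 8.78 to 6.27, 6.35 and 6.71 (-2.85, SE 0.26, adjusted p = 4.15e-05). Fgg fell from 5.92, 5.8 and 5.9 to 3.84, 3.28 and 2.93 (-2.52, SE 0.205, adjusted p = 1.59e-05). No W5 rat reached the lowest W0 rat in any chain, and W5 means lay near the CTL means of 5.03, 6.76 and 3.53. Because the 3 genes lie side by side on chromosome 2 and changed together, their promoters are shown, 250 bases before to 50 bases after the start, from RefSeq on GRCr8. Capitals mark ATTAAC, the reverse complement of GTTAAT, the core of the site read by the hepatocyte nuclear factor HNF1, searched on both strands. Fga lies at chr2:170671919-170672218 (+ strand), Fgb at chr2:170700826-170701125 (- strand) and Fgg at chr2:170652833-170653132 (+ strand).
Fga: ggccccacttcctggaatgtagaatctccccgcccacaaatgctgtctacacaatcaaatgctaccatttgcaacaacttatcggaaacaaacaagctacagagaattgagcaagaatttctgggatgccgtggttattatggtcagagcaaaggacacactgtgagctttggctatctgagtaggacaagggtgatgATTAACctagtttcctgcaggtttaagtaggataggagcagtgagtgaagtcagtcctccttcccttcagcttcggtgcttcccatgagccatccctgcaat
Fgb: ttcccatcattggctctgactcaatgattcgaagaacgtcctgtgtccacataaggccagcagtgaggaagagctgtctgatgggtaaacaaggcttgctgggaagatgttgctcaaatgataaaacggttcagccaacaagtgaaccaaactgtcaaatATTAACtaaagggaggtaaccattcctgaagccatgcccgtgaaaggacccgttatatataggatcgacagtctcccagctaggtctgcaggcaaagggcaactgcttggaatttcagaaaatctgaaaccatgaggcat
Fgg: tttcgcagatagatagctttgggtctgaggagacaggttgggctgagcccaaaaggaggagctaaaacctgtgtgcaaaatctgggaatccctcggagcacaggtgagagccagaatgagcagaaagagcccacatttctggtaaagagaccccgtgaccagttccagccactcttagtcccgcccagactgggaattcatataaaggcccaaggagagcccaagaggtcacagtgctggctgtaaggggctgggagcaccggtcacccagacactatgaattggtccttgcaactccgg
The core began 52 bases before the start of Fga and 90 bases before that of Fgb, and these 6 letters are not in the window of Fgg. GTTAAT was present in 896 of the 14564 promoters of tested genes (6.15%), so a match is common enough to be read as a description only.

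A few other genes of clotting fell. Of 28 measured coagulation and fibrinolysis genes 8 fell, the 3 fibrinogen chains among them, and 0 rose, with a median of -0.13 (2 were higher and 10 lower at an unadjusted p under 0.05), and without W5 rat 2 the count was 5. F2rl1, the protease-activated receptor of epithelia, fell from 7.21, 7.36 and 7.09 to 5.88, 5.77 and 6.04 (-1.32, adjusted p = 0.00025), with every W5 rat more than 1 unit below every W0 rat. Plat, tissue plasminogen activator, fell by 0.99. F3, tissue factor (-0.73), and Procr, the protein C receptor (-0.6), also fell. The call of F3 was lost without W5 rat 1 or 2 (adjusted p = 0.0555 to 0.0656) and that of Procr without W0 rat 2, W5 rat 2 or W5 rat 3 (0.0524 to 0.0683).

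Some genes of matrix proteases and of their inhibitors fell. Of 27 measured matrix proteases and inhibitors 11 fell and 0 rose (12 lower and 1 higher at an unadjusted p under 0.05), with a median of -0.35, and 7 fell without W0 rat 2, W0 rat 3, W5 rat 1 or W5 rat 2. Timp1, an inhibitor of metalloproteinases, was at 8.26, 8.83 and 8.7 at W0 and at 6.45, 6.39 and 6.7 at W5 (-2.09, SE 0.188, adjusted p = 4.15e-05). Adamts1, a protease of proteoglycans, fell from 10.11, 10.18 and 10.43 to 8.19, 8.0 and 8.1 (-2.14, adjusted p = 4.15e-05). Neither gene had a W5 rat within 1 unit of a W0 rat, and the related Adamts4 (-1.17) and Adamts9 (-0.89) fell too. A2m, a broad protease inhibitor, fell by 1.71. Serpina3n, a serine protease inhibitor, had W0 levels of 10.88, 10.52 and 7.94 and W5 levels of 6.89, 6.19 and 5.85 (-3.47, adjusted p = 0.0124). Its fall was the third in size but the W0 rats spanned almost 3 units, and the call was lost without W0 rat 2 (0.0515) or W5 rat 2 (0.0529).

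Some interstitial matrix genes were called. Of 32 measured genes 4 fell and 1 rose, where 3.17% of all genes fell and 1.88% rose. The median of the list was -0.14. The 4 were Lox, the collagen cross-linking oxidase (-0.87), Col6a2 (-0.56), Loxl1 (-0.51) and Fn1, fibronectin (-0.5), and the 1 that rose was Thbs2, a thrombospondin (0.5). These calls rested on single rats: of the 4, 0 were called without W5 rat 2, 1 without W0 rat 2, W0 rat 3 or W5 rat 3, and 2 without CTL rat 1 or W1 rat 2, and Thbs2 was lost without W0 rat 2, W5 rat 1, W5 rat 2 or W5 rat 3 (adjusted p = 0.0711 to 0.124). Lox was lost without W5 rat 2 (0.0635), Col6a2 without W0 rat 2, W0 rat 3, W5 rat 2 or W5 rat 3 (0.0664 to 0.117), Loxl1 without CTL rat 1, W0 rat 2, W0 rat 3, any W1 rat or any W5 rat (0.0537 to 0.179), and Fn1 without CTL rat 1, CTL rat 3, any W0 rat, W1 rat 2, W5 rat 2 or W5 rat 3 (0.0503 to 0.167). Col1a1, a chain of the main fibrillar collagen, was at 6.48, 6.52 and 6.68 at W0 and at 6.84, 6.74 and 6.74 at W5 (0.21, adjusted p = 0.332). Col3a1 was at 7.57, 7.53 and 7.58 at W0 and at 7.42, 7.19 and 7.18 at W5 (-0.3, adjusted p = 0.333). Neither collagen passed the test, with SEs of 0.107 and 0.15. In the basement membrane list 4 of 18 genes fell and 1 rose, with a median of -0.25. The chain Col4a1 of collagen IV fell from 7.99, 8.04 and 7.83 to 7.33, 7.21 and 7.15 (-0.73, adjusted p = 0.00381) and the laminin chain Lamc1 from 8.19, 8.07 and 8.13 to 7.5, 7.49 and 7.56 (-0.61, adjusted p = 0.00531). Col4a2 (-0.56) and Lamb3 (-0.8) fell and Col4a4 (0.52), a chain of the glomerular membrane, rose, all 3 with calls that single rats ended. Col4a2 was lost without W0 rat 2, W5 rat 1 or W5 rat 3 (adjusted p = 0.0522 to 0.0657), Lamb3 without W0 rat 1, W0 rat 3 or any W5 rat (0.0565 to 0.113), and Col4a4 without W0 rat 2, W0 rat 3, W5 rat 1 or W5 rat 2 (0.0809 to 0.145), and the list's count of falls was 2 without W5 rat 3.

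Genes of innate immunity fell in part. Of 30 measured macrophage and monocyte genes 9 fell and 0 rose (12 lower and 0 higher at an unadjusted p under 0.05), with a median of -0.31. Under the alternative settings 6 to 11 fell. C1qb, C1qc and Itgam are counted in this list and in the complement list, and Lgals3 in the injury list too. Gpnmb, a glycoprotein of lipid-laden and phagocytic macrophages, was at 7.44, 8.21 and 8.59 at W0 and at 6.03, 6.0 and 6.4 at W5 (-1.94, SE 0.253, adjusted p = 0.000667). Mrc1, the mannose receptor, fell from 6.32, 5.89 and 6.03 to 5.0, 4.96 and 4.89 (-1.13, adjusted p = 0.00145), and Cd14, the lipopolysaccharide co-receptor, fell by 0.92. The W0 rats were unequal in these genes, with mean levels over the list of 6.4, 6.71 and 7.16. The W5 rats were at 6.25, 6.24 and 6.37, so that W5 rat 3 was nearly level with W0 rat 1. The CTL rats lay lower again, at 6.01 to 6.12. Of 23 complement genes 6 fell and 0 rose, with a median of -0.33 (12 lower and 0 higher at an unadjusted p under 0.05). C3, the hub of the cascade, was at 7.46, 8.74 and 8.57 at W0 and at 6.52, 6.52 and 6.57 at W5 (-1.72, SE 0.322, adjusted p = 0.00682). C1qb (-1.09) and C1qc (-0.93), subunits of the recognition protein made by macrophages, and Cd55, which protects host cells from the cascade (-0.7), fell too, whereas the call of Itgam (-0.69), a complement receptor subunit, was lost without CTL rat 1, W0 rat 3 or any W5 rat (adjusted p = 0.0516 to 0.132).

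Among 50 chemokine and cytokine genes 10 fell and 1 rose, with a median of -0.15. Cxcl11, which attracts T cells through Cxcr3, was at 8.5, 8.63 and 8.76 at W0 and at 6.56, 6.82 and 7.15 at W5 (-1.79, SE 0.163, adjusted p = 4.15e-05). Its W5 mean was also 0.63 below CTL, at 7.48, but that difference did not pass the test over all genes (adjusted p = 0.582). The cytokine Lif (-1.48) and the receptor Osmr (-1.62), both of the interleukin-6 family, fell, as did the receptor Tnfrsf1a of tumour necrosis factor (-1.13), the chemokine Ccl6 (-1.05) and the antagonist Il1rn (-0.98). Cxcl12 and its receptor Cxcr4 moved in opposite directions. Cxcl12 rose from 7.9, 8.31 and 8.84 to 9.47, 9.67 and 9.6 (1.23, adjusted p = 0.00269), and Cxcr4 fell from 7.15, 7.28 and 7.96 to 6.19, 6.32 and 6.72 (-1.06, adjusted p = 0.0056). No W5 rat lay within the W0 range in either gene.

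Lymphocyte genes gave no call. Of 24 measured T, NK and B cell genes 0 rose and 0 fell in limma, and 1, Gzmk, was lower at an unadjusted p under 0.05 (-0.4, adjusted p = 0.0859). Of 13 neutrophil genes 2 fell, S100a8 (-3.14, adjusted p = 0.0259) and S100a9 (-2.09, adjusted p = 0.0342), the subunits of calprotectin. S100a8 was at 4.71, 6.35 and 5.95 at W0 and at 2.25, 2.27 and 3.06 at W5, and the neutrophil granule genes Mpo (-0.29, adjusted p = 0.311), Elane (-0.19, adjusted p = 0.638) and Camp (0.21, adjusted p = 0.585) did not pass the test. The calls of S100a8 (without W0 rat 2, W0 rat 3, W5 rat 1 or W5 rat 2, adjusted p = 0.0775 to 0.103) and S100a9 (those rats or W5 rat 3, 0.074 to 0.11) depended on single rats. Of 10 MHC class II genes 2 fell, Ctss, a protease that trims the invariant chain (-0.82, adjusted p = 0.0414), and RT1-DMa, the peptide exchange subunit (-0.51, adjusted p = 0.0292). Ctss was lost without CTL rat 2, CTL rat 3, W0 rat 2, W0 rat 3, W1 rat 3 or any W5 rat (0.0515 to 0.162) and RT1-DMa without W0 rat 2, W0 rat 3 or any W5 rat (0.0536 to 0.108). Of 27 interferon response genes 1 rose, Usp18, which restrains interferon signalling (1.19, adjusted p = 0.00887), and 2 fell, the proteasome subunit Psmb8 (-0.77) and the exonuclease Isg20 (-0.67), with a median of -0.02. Among all genes 1.88% rose and 3.17% fell. Psmb8 was lost without CTL rat 1, CTL rat 2, W0 rat 2, W0 rat 3 or any W5 rat (0.0501 to 0.141) and Isg20 without W0 rat 1, W0 rat 2 or any W5 rat (0.0576 to 0.128).

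Many proximal tubule genes moved the other way. Of 34 measured genes of its metabolism 15 rose and 2 fell, with a median of 0.61. Rgn, the calcium-binding regucalcin, was at 8.75, 7.58 and 6.75 at W0 and at 10.16, 9.97 and 9.99 at W5, 5.09-fold higher (2.35, SE 0.367, adjusted p = 0.0023). Hnmt, which inactivates histamine, rose from 8.86, 7.96 and 6.95 to 9.95, 10.02 and 9.7 (1.96, SE 0.335, adjusted p = 0.00401). In both genes the W0 rats spread over about 2 units in the order rat 1, rat 2, rat 3, while the W5 rats lay close together. Nat8f1, of the N-acetyltransferase family (1.98), and Akr1c12l1, an aldo-keto reductase (2.2), rose as much, and both belong to families of near-identical copies whose probes may share signal. Dpys (1.28) and Upb1 (1.18), successive enzymes of pyrimidine breakdown, Kmo of the kynurenine pathway (1.01), Miox, which oxidises inositol (0.94), Hao2 (0.72) and the carboxylesterase Ces1e (1.49) rose too. The 2 that fell were Gda, guanine deaminase (-1.0, adjusted p = 0.000321), and Pck1, the rate-limiting enzyme of gluconeogenesis (-0.8, adjusted p = 0.00827).

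Of 41 measured proximal transport genes 10 rose and 1 fell, with a median of 0.49. Slc7a13, an amino acid transporter of the late proximal tubule, was at 10.39, 9.02 and 8.09 at W0 and at 11.3, 11.43 and 11.31 at W5 (2.19, SE 0.384, adjusted p = 0.00477). Slc15a2, which reclaims peptides, rose from 7.82, 8.16 and 7.74 to 9.06, 9.23 and 9.15 (1.24, SE 0.125, adjusted p = 0.000105). The organic anion transporters Slc22a6 (0.9) and Slco4c1 (1.35) and the sodium-hydrogen exchanger Slc9a3 (0.93) also rose. Slc34a1, the main phosphate transporter (0.73), Slc22a2, the organic cation transporter (1.28), Slc7a12 (2.27) and Slco1a6 (1.79) also rose, with calls that single rats ended. Slc34a1 was lost without W0 rat 2, W0 rat 3 or W5 rat 2 (adjusted p = 0.053 to 0.0701), Slc22a2 without W0 rat 2, W5 rat 1 or W5 rat 2 (0.0539 to 0.0844), Slc7a12 without W5 rat 1 or 2 (0.0547 to 0.0683), and Slco1a6 without W0 rat 2 or any W5 rat (0.0525 to 0.0748). The count of transport genes that rose was accordingly 16 without W0 rat 1, 6 without W0 rat 2 and 5 without W5 rat 2. Against the rest of the list Slc2a2, the facilitative glucose transporter of the basal membrane, fell from 9.43, 9.53 and 8.92 to 7.62, 8.24 and 7.82 (-1.4, SE 0.189, adjusted p = 0.000848). At W0 it had been above its CTL mean of 7.98, whereas Slc7a13 and Slc15a2 had been below theirs of 11.48 and 9.33.

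Of 16 genes of protein uptake and the brush border 4 rose and 0 fell (7 higher and 1 lower at an unadjusted p under 0.05), with a median of 0.21. Lrp2, the uptake receptor megalin, was at 10.34, 10.49 and 10.26 at W0 and at 11.02, 11.23 and 11.02 at W5 (0.72, SE 0.115, adjusted p = 0.00253). The brush border peptidases Mme (1.26) and Mep1a (1.38) rose, and Anpep (0.98, adjusted p = 0.0177) rose with a call lost without W0 rat 2, W0 rat 3, W5 rat 1 or W5 rat 2 (0.0687 to 0.0879). In the mean over the transport list W5 rat 1 was lowest of its group at 8.62 against 9.03 and 9.0, level with the highest W0 rat at 8.61, so the list as a whole did not separate the groups as cleanly as its called genes did. GTTAAT was found in the promoters of 13 of 78 proximal tubule genes with a RefSeq promoter (16.7%), against 6.15% of all, and CAAAGTCCA, a motif read by Hnf4a, in 5 of them (6.41%) against 0.412% of all (both strands, 300 bases). By call, GTTAAT was in 5 of 25 promoters of genes that rose, 1 of 3 of those that fell and 7 of 50 of those not called.

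**Figure D2:**
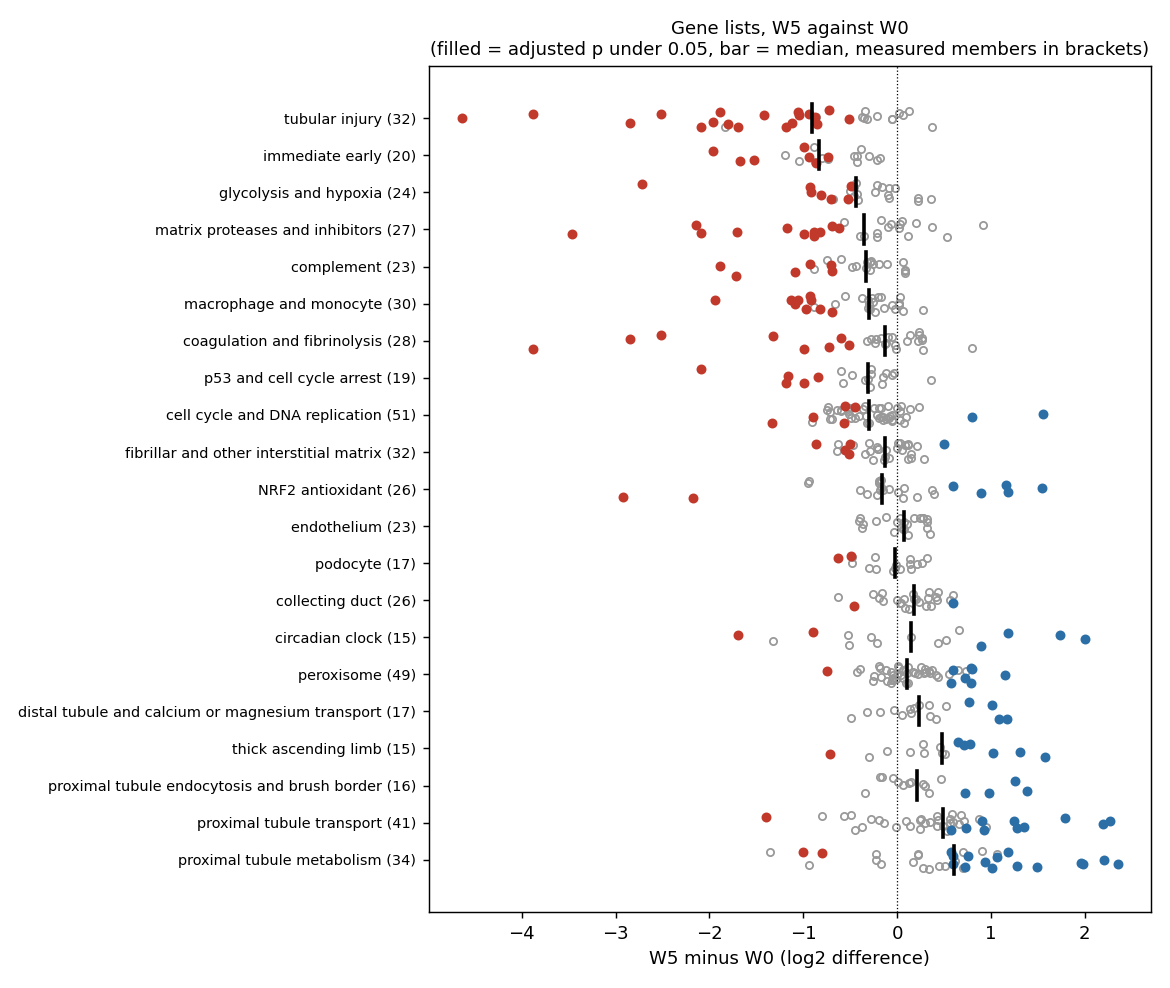
Difference between W5 and W0 (log2) of every measured member of selected gene lists, 1 row a list with the number measured in brackets, filled where the adjusted p was under 0.05 (red lower, blue higher) and with a bar at the list's median. Medians ran from -0.91 for tubular injury to 0.61 for proximal tubule metabolism, and the endothelial list held 0 filled points.

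Beyond the proximal tubule, some thick ascending limb and distal genes rose too. Of 15 thick ascending limb genes 6 rose and 1 fell, with a median of 0.48, and 3 rose without W5 rat 2. Ppp1r1b, a phosphatase inhibitor of that segment, was at 7.6, 6.99 and 6.7 at W0 and at 8.39, 8.69 and 8.15 at W5 (1.31, SE 0.201, adjusted p = 0.00209), and Cldn10, the claudin of its sodium pathway, rose by 0.71. Egf, the growth factor secreted by this segment, was at 9.7, 7.98 and 8.41 at W0 and at 10.49, 10.16 and 10.16 at W5 (1.57, adjusted p = 0.0146). Every W5 rat lay above every W0 rat in these genes, yet the spread at W0 made the call of Egf depend on W0 rat 2, W0 rat 3 and W5 rat 1 (0.0545 to 0.0581 without each). Umod, uromodulin (0.65), was lost without W5 rat 2 (0.0675), and Tmem207 (1.02) without W0 rat 3 or W5 rat 2 (0.0527 to 0.0543). Casr, the calcium-sensing receptor (0.78), was lost without W0 rat 2, W5 rat 1 or W5 rat 2 (0.057 to 0.0764). The 1 that fell was Ptger3, a prostaglandin receptor (-0.72), lost without W0 rat 2, W0 rat 3 or W5 rat 2 (0.0534 to 0.0926).

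Of 17 distal tubule genes 4 rose and 0 fell (8 higher and 2 lower at an unadjusted p under 0.05), with a median of 0.23. Kl, klotho, the co-receptor through which the kidney senses the phosphate hormone Fgf23, was at 9.05, 8.89 and 8.75 at W0 and at 9.97, 10.02 and 9.95 at W5 (1.08, SE 0.149, adjusted p = 0.000993). Slc8a1, the sodium-calcium exchanger that returns calcium to the blood, rose from 7.12, 6.68 and 7.37 to 8.71, 7.98 and 7.98 (1.17, adjusted p = 0.00908), and Tmem72 rose by 0.77. Calb1, the calcium buffer of these cells, rose by 1.01 (adjusted p = 0.0237), a call lost without W0 rat 1, W5 rat 1 or W5 rat 3 (0.0675 to 0.0956). Of 26 collecting duct genes 1 rose, Atp6v1b1, a proton pump subunit (0.6), and 1 fell, the keratin Krt7 (-0.46), with a median of 0.18. Krt7 was lost without CTL rat 1, CTL rat 3, W0 rat 2, W0 rat 3 or any W5 rat (0.0529 to 0.123), and Atp6v1b1 without W0 rat 1, W0 rat 2 or any W5 rat (0.0511 to 0.087). Of 23 transcription factors of the tubule 2 rose and 1 fell. Esrrg, a receptor that drives mitochondrial and ion transport genes, rose from 8.24, 8.12 and 8.38 to 9.01, 8.84 and 8.77 (0.63, adjusted p = 0.00951). Pax8, a factor of nephron development, fell by 0.66 (lost without W5 rat 2, 0.0521), and Hnf4a, the main factor of proximal tubule identity, rose by 0.64 (adjusted p = 0.0457) with a call that 10 of the 12 arrays could end, all but W0 rat 1 and W1 rat 2 (0.0522 to 0.185).

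Several genes of acute stress fell. Of 20 immediate early genes 7 fell and 0 rose, with a median of -0.83 (16 lower and 0 higher at an unadjusted p under 0.05), and 4 fell without W5 rat 3. Myc was at 8.17, 6.99 and 7.5 at W0 and at 5.98, 6.16 and 5.92 at W5 (-1.53, SE 0.226, adjusted p = 0.00152), and Klf6 fell from 8.9, 7.82 and 8.1 to 6.74, 6.6 and 6.43 (-1.68, adjusted p = 0.000599). In both, W0 rat 1 was highest, as it was in the mean over the list (7.69 against 6.77 and 6.93), and all W5 rats were below every W0 rat. Atf3, induced by many stresses (-1.96), and Ier3 (-0.94) fell, and Jun (-0.87) fell but for the omission of W5 rat 3 (0.0504). Of 19 p53 target and cell cycle arrest genes 5 fell and 0 rose, with a median of -0.31 (10 lower and 1 higher at an unadjusted p under 0.05), and 3 fell without W5 rat 1. Cdkn1a, the arrest protein p21, was at 9.25, 8.17 and 8.09 at W0 and at 6.65, 6.2 and 6.39 at W5 (-2.09, SE 0.243, adjusted p = 0.000274). Plk2 (-1.16) and the death receptor Tnfrsf10b (-0.84) fell with it. Gdf15, a stress hormone (-1.19), was lost without W5 rat 1 (0.0549), and Gadd45b (-0.99) without W0 rat 1, W5 rat 1 or W5 rat 2 (0.0765 to 0.122).

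Antioxidant genes split. Hmox1, haem oxygenase, was at 10.08, 9.0 and 7.08 at W0 and at 5.58, 6.14 and 5.7 at W5 (-2.92, SE 0.54, adjusted p = 0.00648). The W0 rats differed by 3 units among themselves, and still none reached down to a W5 rat. Of 26 NRF2 targets 2 fell, Hmox1 and the intestinal-type peroxidase Gpx2 (-2.18, lost without W5 rat 2, adjusted p = 0.0683), and 5 rose, with a median of -0.16. The risers were the glutathione synthesis subunits Gclc (1.18) and Gclm (0.89), Osgin1 (1.54), Akr7a3 (1.16) and Gsta2 (0.6), the last also a proximal tubule gene. None of these 5 was called without W0 rat 2, W0 rat 3, W5 rat 2 or W5 rat 3, and 2 were without W5 rat 1. Gclm was lost without any CTL rat or W1 rat 3 too. Over the omissions that ended each call the adjusted p was 0.0504 to 0.139 for Gclm, 0.0539 to 0.0945 for Gclc, 0.0561 to 0.104 for Osgin1, 0.0759 to 0.13 for Akr7a3 and 0.0553 to 0.114 for Gsta2. TGACNNNGC, the core of the antioxidant response element, was in 8 of 21 promoters of the list (38.1%) against 13.5% of all (both strands). The 8 included genes that rose (Gclm and Gsta2), 1 that fell (Gpx2) and 5 that were not called.

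Pdk4, Angptl4, Plin2 and Igfbp1, which are known to respond to fasting or hypoxia, fell. Pdk4, which turns pyruvate away from the mitochondrion, was at 9.81, 9.15 and 9.65 at W0 and at 6.8, 6.5 and 7.05 at W5 (-2.75, SE 0.186, adjusted p = 3.22e-06). Angptl4, a secreted lipase inhibitor raised by fasting and hypoxia, fell from 7.65, 7.3 and 7.66 to 4.5, 4.95 and 4.99 (-2.72, SE 0.169, adjusted p = 1.36e-06). Plin2, the coat protein of lipid droplets (-2.24), and Igfbp1, a binding protein of insulin-like growth factors (-2.65), fell in the same range. Every W5 rat was at least 1 unit below every W0 rat in all 4. Of 24 glycolysis and hypoxia genes 7 fell and 0 rose, with a median of -0.43 (13 lower and 0 higher at an unadjusted p under 0.05). Ndrg1 (-0.92) and the phosphofructokinase Pfkp (-0.7) fell. Ldha, lactate dehydrogenase (-0.81), was lost without W0 rat 2, W5 rat 1 or W5 rat 2 (0.0547 to 0.0818), and Epo, erythropoietin (-0.93, adjusted p = 0.0432), without any 1 array but W0 rat 2 (0.052 to 0.145). The list's count was 4 without CTL rat 1, W0 rat 1, W1 rat 2 or W1 rat 3 and 3 without W5 rat 1 or 2. It was also 4 once the arrays were centred on their medians or quantile normalised anew.

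Some peroxisomal genes rose. Of 49 peroxisomal genes 7 rose and 1 fell, with a median of 0.1, and 3 rose without W0 rat 3 or W5 rat 3 and 4 without W5 rat 2. Amacr, which prepares branched fatty acids for oxidation, was at 6.71, 7.16 and 6.7 at W0 and at 7.75, 8.03 and 8.22 at W5 (1.15, SE 0.172, adjusted p = 0.00178), and Nudt12 rose by 0.8. Of 27 genes of mitochondrial fatty acid oxidation 3 rose and 3 fell, Pdk4 being the one whose call held without any single array. Of 51 genes of the citrate cycle and respiratory chain 1 rose, the electron carrier Cycs (0.5, adjusted p = 0.0368), where 1.88% of all genes rose, with a median of 0.16. Cycs was lost without W0 rat 2, W0 rat 3, W1 rat 3 or any W5 rat (0.0536 to 0.146).

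Some proliferation genes passed the test. Of 51 cell cycle genes 5 fell and 2 rose, where 3.17% of all genes fell and 1.88% rose. The median of the list was -0.3, and 20 were lower at an unadjusted p under 0.05. Without single arrays 1 to 8 genes of the list fell, and over all alternatives 0 to 8. None of the 5 falls was called in the fit of the 6 W0 and W5 arrays (adjusted p = 0.0515 to 0.123). Rrm2 had the largest fall of the list (-1.33, adjusted p = 0.0425). Its call was lost without any CTL rat, W0 rat 2, W1 rat 2, W1 rat 3 or any W5 rat (0.0506 to 0.162). Rrm2 has several probesets, and with their mean the call was lost too (-1.16, adjusted p = 0.0571). Ube2c, a mitotic ubiquitin enzyme, fell from 6.96, 7.17 and 6.35 to 5.86, 6.08 and 5.83 (-0.9, adjusted p = 0.0115). The 2 that rose were Ccnd1, cyclin D1 (0.8, adjusted p = 0.00314), and Melk, a kinase (1.55, adjusted p = 0.00487), with Melk at 6.25, 5.22 and 4.73 at W0 and at 7.09, 6.83 and 6.95 at W5. CCAAT, read by the factor NF-Y, was in 27 of 39 promoters of the list (69.2%) against 37.9% of all (both strands). It was in 25 of 35 promoters of genes not called, 2 of 3 of those that fell and 0 of 1 that rose.

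Clock genes separated the groups. Of 15 measured clock genes 4 rose and 2 fell, where 1.88% of all genes rose and 3.17% fell. The W5 levels of 12 lay wholly above or below W0, as did those of 23% of all genes. Nr1d1, the repressor REV-ERB alpha, was at 8.35, 8.05 and 8.37 at W0 and at 9.93, 10.05 and 9.98 at W5 (1.73, SE 0.141, adjusted p = 1.59e-05). Dbp, an output factor of the clock, rose from 6.37, 6.86 and 7.05 to 8.73, 8.6 and 8.94 (2.0, SE 0.28, adjusted p = 0.00112). All W5 rats were far above all W0 rats in both, and the related Tef (1.18) and Per3 (0.89) rose too. Nfil3, which binds the same sites as Dbp and opposes it, fell by 1.7 (adjusted p = 0.00101), and the repressor Cry1 fell by 0.9. Bmal1, the activator of the loop, was at 7.56, 6.45 and 6.33 at W0 and at 5.57, 5.54 and 5.27 at W5 (-1.32, adjusted p = 0.0831). These genes cycle through the day, the hour of sampling is not given, and its part was not tested. CTL means were 9.69 for Nr1d1 and 8.13 for Dbp, W1 means 9.5 and 8.33, so that W0 was the group that stood apart.

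**Figure D3:**
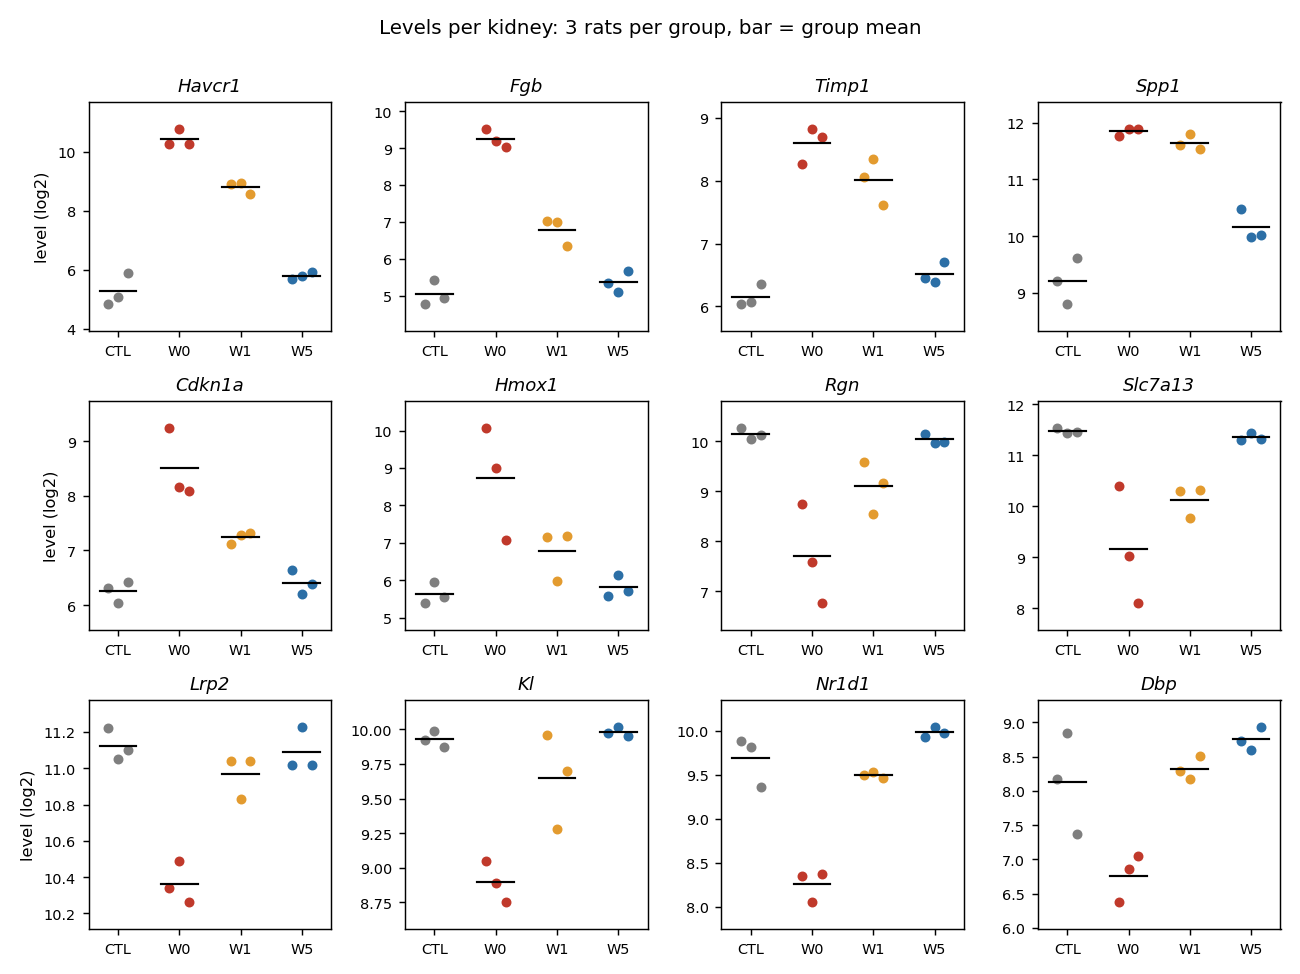
Log2 level of selected genes in each of the 12 rats, by group (CTL, W0, W1, W5), with a line at the group mean. W0 rats stand apart from W5 rats in the genes that fell, such as Havcr1 (10.25 to 10.79 against 5.67 to 5.92), and in those that rose, such as Kl (8.75 to 9.05 against 9.95 to 10.02).

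Growth factors changed gene by gene. Of 46 measured genes 4 fell and 4 rose, with a median of -0.02. Besides Igfbp1 the falls were Fgf1 (-0.85), Met, the receptor of hepatocyte growth factor (-0.73), and Grem1, a secreted antagonist of bone morphogenetic proteins (-0.93). Grem1 was lost without W0 rat 2, W1 rat 3, W5 rat 2 or W5 rat 3 (adjusted p = 0.0507 to 0.179). Beside Egf the rises were Igf1 (0.89), Bmp4 (0.72) and Bmp6 (0.53). Igf1 was lost without W0 rat 2, W5 rat 1 or W5 rat 2 (0.0511 to 0.0602), Bmp4 without W0 rat 2 or any W5 rat (0.0599 to 0.125), and Bmp6 without W0 rat 1, W0 rat 2, W5 rat 1 or W5 rat 3 (0.0663 to 0.104).

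Calls among vascular and glomerular genes differed by list. Of 23 endothelial genes 0 rose and 0 fell in limma, with a median of 0.07 (1 higher and 4 lower at an unadjusted p under 0.05). Nos3, the endothelial nitric oxide synthase and a target of the drug, was at 6.2, 6.01 and 5.68 at W0 and at 5.64, 5.55 and 5.51 at W5 (-0.4, adjusted p = 0.186). Of 17 podocyte genes 2 fell, Cd2ap, an adaptor of the slit diaphragm (-0.49), and the myosin Myh9 (-0.63), with a median of -0.02. Nphs1, the slit protein nephrin, was at 6.58, 6.41 and 6.56 at W0 and at 6.65, 6.48 and 6.51 at W5 (0.03, adjusted p = 0.922). Cd2ap was lost without W0 rat 3 or W5 rat 2 (0.0536 to 0.0706), and Myh9 without CTL rat 1, any W0 rat, W1 rat 2 or any W5 rat (0.0568 to 0.123). Among 18 mesangial and smooth muscle genes Rgs4, which damps signalling through G proteins, fell by 1.02 (adjusted p = 0.00374) and Agtr1a, the angiotensin receptor, rose by 0.61 (adjusted p = 0.0396). Of 30 vasoactive genes 2 fell, Edn1, endothelin 1 (-0.92), and Pde5a, which degrades cyclic GMP (-0.53), and 2 rose, Edn3 (0.73) and Agtr1a, with a median of 0.02. The shares of all genes were 3.17% fallen and 1.88% risen. Edn1 was lost without CTL rat 2, W0 rat 1, W1 rat 2, W1 rat 3 or any W5 rat (0.0511 to 0.144), Pde5a without W0 rat 1, W0 rat 3, W5 rat 2 or W5 rat 3 (0.0742 to 0.113), Edn3 without W0 rat 1, W0 rat 2, W1 rat 3 or any W5 rat (0.0514 to 0.135), and Agtr1a without any CTL rat, W0 rat 1, W0 rat 2, W1 rat 2, W1 rat 3, W5 rat 2 or W5 rat 3 (0.053 to 0.142). Outside these lists Gucy1b2, a subunit of the soluble guanylate cyclases that sense nitric oxide, rose from 6.88, 6.08 and 6.03 to 8.06, 8.29 and 8.07 (1.81, SE 0.212, adjusted p = 0.000291), with CTL at 8.19 and all W5 rats more than 1 unit above all W0 rats. Ism1, a secreted isthmin, was at 5.74, 5.78 and 5.7 at W0 and at 5.3, 5.9 and 6.29 at W5 (0.09, SE 0.206, adjusted p = 0.873), so that the W5 rats lay on both sides of W0.

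Among the 15 largest rises and 15 largest falls were further genes outside the lists. Alox15, a lipoxygenase, fell from 8.72, 7.51 and 6.71 to 4.69, 4.52 and 4.76 (-2.99, SE 0.458, adjusted p = 0.00206), and Akap12, a scaffold of kinase A, fell by 2.15. Esr1, the oestrogen receptor alpha, rose from 6.22, 5.63 and 5.37 to 7.32, 7.36 and 7.2 (1.56, SE 0.205, adjusted p = 0.000704). In each gene the W5 rats lay close together and the W0 rats spread more widely. Guca2b, uroguanylin, had W0 levels of 6.97, 10.18 and 9.09 and W5 levels of 6.52, 6.26 and 7.02 (-2.15, adjusted p = 0.0413), so that W0 rat 1 lay below W5 rat 3, and the call was lost without any 1 of 10 arrays, all but W0 rat 1 and W1 rat 2 (0.052 to 0.159). Prima1, an anchor of acetylcholinesterase (2.01), was lost without W0 rat 3, W5 rat 2 or W5 rat 3 (0.0649 to 0.0972). Cacng5, a calcium channel subunit (1.93), was lost without W0 rat 2, W0 rat 3, W5 rat 1 or W5 rat 2 (0.0788 to 0.138), and Gng13, a G protein subunit (1.65), without W5 rat 1 or 2 (0.0553 to 0.0818).

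Markers of other tissues were read beside these results. The kidney's own segment genes were bright in all 12 arrays, with list means of 8.15 to 9.18 for proximal transport. Of 4 red cell genes 2 fell, the globin Hba-a1, from 12.08, 11.88 and 11.85 to 10.98, 11.01 and 10.76 (-1.02, adjusted p = 0.0103), and Ahsp (-1.44, adjusted p = 0.00384), and the list means were 7.35 to 7.98 at W0 and 6.8 to 6.94 at W5. W0 rat 1 was highest in that list and also in the fat list, with a mean of 7.18 against 6.7 and 6.54, where 2 of 10 genes fell, Fabp4 and Pck1. Pck1 is counted in the proximal tubule metabolism list too, and W0 rat 1 was its lowest W0 rat (10.72 against 10.95 and 10.98). Fabp4 was at 9.53, 8.85 and 8.23 at W0 and at 7.31, 6.55 and 7.92 at W5, a call lost without W0 rat 1, W0 rat 2, W5 rat 1 or W5 rat 2 (adjusted p = 0.0594 to 0.117), whereas the fat cell genes Adipoq (-0.34, adjusted p = 0.294) and Plin1 (-0.01, adjusted p = 0.981) did not pass the test. Of 8 adrenal and 9 urothelial genes 0 rose and 0 fell in limma (1 and 0 at an unadjusted p under 0.05). Of 8 lymphatic and lymph node genes Pdpn (-1.16) and Lyve1 (-0.81) fell and Prox1 (0.72) rose, the last lost without W0 rat 1, W0 rat 3, W5 rat 1 or W5 rat 2 (0.0707 to 0.1). The part of blood content in the other results was not tested.

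How far recovery had gone by 5 weeks was read against CTL. Of 18166 genes 0 differed between W5 and CTL in limma (0%), with 1333 at an unadjusted p under 0.05, and 0 or 1 gene passed under each alternative setting that kept the adjusted p as the rule. The smallest adjusted p was 0.065, for Col1a1. CTL rats were at 5.93, 6.04 and 5.96 and W5 rats at 6.84, 6.74 and 6.74, so that the groups did not overlap (0.79, SE 0.107). It passed with an intensity trend in the variances (adjusted p = 0.0499) and with only genes above 5 in at least 3 arrays tested (0.0322). Col3a1 was next, with 6.17, 6.21 and 6.43 in CTL and 7.42, 7.19 and 7.18 at W5 (0.99, SE 0.15, adjusted p = 0.0761), and it passed without W1 rat 3 (0.0238). Klk1c9, of the kallikrein family, passed without CTL rat 2 (-2.46, adjusted p = 0.0142), the CTL rats being at 6.97, 4.26 and 7.99, and Rps26l1, a ribosomal protein-like gene, without W5 rat 2 (-1.88, adjusted p = 0.0159). With all arrays they differed by -1.39 (adjusted p = 0.672) and -1.33 (adjusted p = 0.583). Both collagens had changed little since W0, by 0.21 and -0.3, and the median over the 32 interstitial matrix genes was 0.37 for W5 minus CTL and -0.14 for W5 minus W0. For the 32 tubular injury genes these medians were 0.15 and -0.91. Spp1 (0.96, adjusted p = 0.444), Fn1 (0.64, adjusted p = 0.444) and Gpnmb (1.23, adjusted p = 0.444) also had W5 means above CTL without passing the test. Others as near to a call had W5 means below CTL. Acsm3 had means of 9.7 in CTL, 8.53 at W0 and 8.45 at W5 (W5 minus CTL -1.25, adjusted p = 0.444). Plekhj1 (-0.68, adjusted p = 0.444) and Vom2r59 (-0.69, adjusted p = 0.12, with a W5 mean of only 2.15) were lower too. These differences share the W5 arrays with those between W5 and W0, so the 2 sets of values are not independent.

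The course was then split at W1 to ask whether a gene changed by a different amount in the first week than in the later weeks. The 2 steps span unequal times and were not scaled by time, so the test compares amounts and not rates. The difference between the first step (W1 minus W0) and the later step (W5 minus W1) passed for 7 of 18166 genes (0.0385%), against a median of 0.086 over all genes. Taken singly, 96 genes were called in the first step and 52 in the later one. Pdk4 differed by -2.58 over the first week and by -0.17 later (difference of the steps -2.41, SE 0.322, adjusted p = 0.0193), and Angptl4 by -2.46 and -0.27 (-2.19, SE 0.292, adjusted p = 0.0193). Pck1 (-1.28, then 0.48) and the carrier Slc25a25 (-1.55, then 0.68) were lowest at W1 among these groups, with adjusted p = 0.034 for each difference of steps. The call of Slc25a25 between W5 and W0 (-0.88) was lost without W0 rat 1, W5 rat 1 or W5 rat 3 (0.0528 to 0.0632). Col1a1 (0.73, then -0.52), the protease Adam12 (0.71, then -0.87) and the kinetochore gene Knl1 (0.58, then -1.36) were highest at W1. Each of the 7 had its W1 rats outside the W0 range. The 7 were selected on these same levels, so that separation gives no further support. The count itself was unstable. It was 0 without W1 rat 1, W1 rat 2 or W5 rat 3 and 1 without W1 rat 3 or W5 rat 2. It was 2 without W5 rat 1, 3 without CTL rat 3, and 23 without W0 rat 3. Medians of whole lists over the 2 steps differed in timing: they were -0.67 and then -0.15 for immediate early genes, 0.37 and then 0.23 for proximal tubule metabolism, -0.3 and then -0.54 for tubular injury, 0.15 and then -0.61 for macrophage genes, and 0.23 and then -0.38 for interstitial matrix. Both steps share the W1 arrays, and these medians were not tested.

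**Figure D4:**
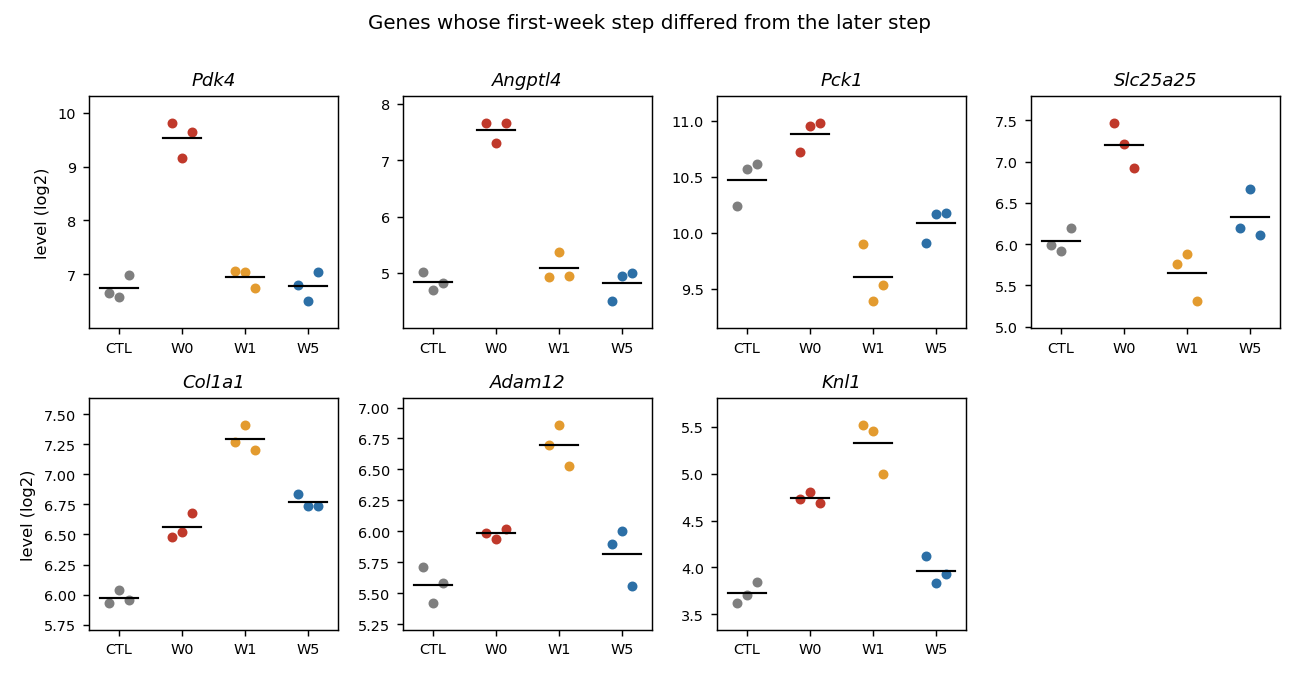
Log2 level in each of the 12 rats, by group (CTL, W0, W1, W5, with a line at the group mean), of the 7 genes whose first-week step differed from the later step. Pdk4 and Angptl4 had reached their W5 levels by W1, Pck1 and Slc25a25 were lowest at W1, and Col1a1, Adam12 and Knl1 were highest at W1.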

How the data were processed

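Total RNA of 12 rat kidneys, one per animal, was amplified and hybridised to Affymetrix arrays. The deposited values are log2 levels per probeset, which the authors normalised over all arrays with RMA (background correction, quantile normalisation, median polish); the software is not given in the sources used here, nor are scan dates, so no batch could be tested. Of 20944 probesets, 18510 carried a single gene symbol, and the one with the highest mean over the 12 arrays stood for each of 18166 genes. W5 and W0, W5 and CTL, and the first-week and later steps were tested by limma (version 3.58.1, run under R 4.3.3), in one fit of all 4 groups that shared a variance, with Benjamini-Hochberg adjustment over all genes. P-values rest on a spread between rats pooled over the 4 groups of 3 rats, not on that of W0 and W5 alone. Where W0 rats spread more widely than the others, the SE and p-value understate that spread. For Hmox1 the SDs were 1.52 at W0 and 0.294 at W5, and the pooled fit gave an SE of 0.54. The scripts were tested on simulated data.

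Chosen for naming by rule were the 15 largest rises and 15 largest falls, up to 4 called members of each of 40 gene lists by size (or, where none was called, the one of smallest p), Ism1, Havcr1 and the genes called between steps. Some of these are not described above, nor are the lists of sterol and fatty acid synthesis and of the unfolded protein response. Each called gene so left out lost its call without at least 1 array. Other members of lists, and genes near the threshold against CTL, were added after their values were seen. The members and lists were chosen with earlier results of these data known. Alternatives were a fit of the compared groups, an intensity trend, a replicate block, median centring, repeated quantile normalisation, a filter on dim genes, means of probesets, a fold threshold and the omission of each array. Promoters were those of RefSeq (GRCr8) for 14564 tested genes, matched by gene symbol or identifier.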

Additional observations from a re-analysis of the deposited data

Results flagged for a closer look

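Probesets that carry no single gene symbol were outside the comparisons above, and 71 of them passed the same test between W5 and W0. When all 20944 probesets were fitted together 966 passed. Of the 71, 27 were higher and 44 lower at W5. They comprised 53 of the 1859 probesets with no symbol and 18 of the 575 with several symbols, and none is named here because a probeset with several symbols cannot be given to 1 gene. With 3 rats in each group no outlying rat was tested for.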

How the results depend on the processing

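For W5 against W0 the 916 called genes became 537 in a fit of those groups alone, 265 at 2-fold and an unadjusted p, and 238 at 2-fold and the adjusted p. Without 1 array they ranged from 407 (without W5 replicate 2) to 982 (without W1 replicate 1). For W5 against CTL the count of 0 became 1 with an intensity trend, 1 with genes above 5 in at least 3 arrays, 0 to 1 without 1 array, and 13 at 2-fold and an unadjusted p. For the difference between the steps the 7 genes became 0 in a fit of the compared groups alone, 0 to 23 without 1 array, and 291 at 2-fold and an unadjusted p. The cause was not tested, beyond the fewer samples that a smaller fit holds. Ism1, at 0.09 with all arrays, was -0.14 without W5 replicate 3 (adjusted p = 0.773) and ranged up to 0.35 without W5 replicate 1. The share of called genes that were higher was 37.2%, and 43.2% after median centring and 46.4% after repeated quantile normalisation. Those scalings moved the median of all genes to 0.025 and 0.006.

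Replicate numbers are not said to pair rats, and same-numbered W0 and W5 rats deviated together only weakly (correlations of 0.164, 0.00559 and 0.0759). With the number as a replicate block 970 genes were called, 845 of them among the 916, and 2 genes in the difference between the steps. Of 124 called genes named by the rule, 3 lost their call with the block: Grem1 (adjusted p = 0.0567), Hnf4a (0.0632) and Psmb8 (0.0533). Of these 124, 37 lost it in the fit of W0 and W5 alone, 3 under median centring and 7 under quantile normalisation, and 65 kept it under every alternative run. Of 2449 values of named genes under alternatives, 2132 kept direction and side of the threshold, 315 lost the call, 1 gained it and 1 changed sign.

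With 3 rats in each group and a median SE of 0.145, the smallest change called was 0.38, and changes of that size or larger can be missed with this number of arrays. Genes with a mean below 5 made up 7.31% of called genes against 34.9% of all. Of 19 called genes with several probesets, 1 had probesets of opposite sign.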

Other observations

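Several called genes outside the lists were picked after their values were seen. Tight junction claudins fell together in part: Cldn4 was at 9.2, 8.65 and 8.77 at W0 and at 7.35, 7.12 and 7.21 at W5 (-1.65, adjusted p = 0.000105), and Cldn3 (-1.24), Cldn7 (-1.16) and Cldn1 (-1.07) fell too, while Cldn10 rose. Slc34a2, a phosphate transporter of other epithelia, fell from 10.18, 10.37 and 10.84 to 8.78, 8.55 and 8.24 (-1.94, adjusted p = 0.000203), opposite to the proximal phosphate transporter Slc34a1 (0.73). Niban1, a stress-responsive gene, was at 8.05, 7.92 and 8.01 at W0 and at 6.38, 6.46 and 6.24 at W5 (-1.63, adjusted p = 4.8e-06), with CTL rats at 5.73, 5.72 and 5.78. No W5 rat reached a W0 rat in these falls.

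Products that the liver makes in the acute phase fell beside the fibrinogens: Lbp, the lipopolysaccharide binding protein (-1.52, adjusted p = 0.00133), and Cp, the copper carrier ceruloplasmin (-1.15, adjusted p = 0.000922). Socs3, a feedback inhibitor of interleukin-6 family signalling, was at 7.94, 6.24 and 6.82 at W0 and at 5.56, 5.57 and 5.47 at W5 (-1.47, adjusted p = 0.0113), and its W5 rats lay close together. Nfkbiz (-1.51, adjusted p = 0.000493) and the cytokine Il24 (-1.49, adjusted p = 0.00133) fell as well.

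Among hormone receptors and metabolic enzymes that rose, Prlr, the prolactin receptor (1.24, adjusted p = 0.00933), Pth1r, the parathyroid hormone receptor (0.88, adjusted p = 0.00648), and Gcgr, the glucagon receptor (1.01, adjusted p = 0.00504), stood with Dio1, the deiodinase that activates thyroid hormone (1.49, adjusted p = 0.00724). Dio1 was at 9.21, 8.1 and 7.58 at W0 and at 9.7, 9.9 and 9.76 at W5, and CTL was at 9.85. Acmsd (1.27, adjusted p = 0.00109) and Haao (0.84, adjusted p = 0.00449) rose with Kmo (1.01), and all 3 are enzymes of the kynurenine pathway, whereas Kynu of the same pathway differed by 0.45 (adjusted p = 0.244). Nox4, an oxidase of the tubule, rose from 7.07, 7.33 and 7.41 to 7.92, 8.75 and 9.0 (1.29, adjusted p = 0.00647). Muc4, a membrane mucin, differed by 0.12 between W5 and W0 (adjusted p = 0.809). It was at 6.81, 6.25 and 6.91 at W0, 6.89, 6.5 and 6.94 at W5 and 5.89, 5.36 and 5.31 in CTL, with no call between W5 and CTL (1.26, adjusted p = 0.0761).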
